A study of Mus musculus with 3 samples.

Results

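Classical monocytes (CMs) of the recipient were examined in mouse left lung grafts after 3 days of reperfusion. They were chosen by a rule on measured gene shares, and 613 of the 8514 cells kept from the 3-day library met it, which was 7.20% (95% exact Clopper-Pearson interval, 6.66% to 7.77%). The series held 3 single-cell libraries with 22265 cell barcodes in all: the left lung of naive C57BL/6J (B6) mice, and grafts at 2 hours and at 3 days after syngeneic orthotopic transplantation from CD45.2+ B6 donors into CD45.1+ B6 recipients. Grafts had been held for 60 minutes at 4 °C and a further 45 minutes at 28 °C, and cells carrying the recipient allele CD45.1 were sorted. Each library pooled cells of 2 mice, which were 8 to 10 weeks old as stated for all mice of the study, of either sex, with the sex per library not given in the sources used here. With 1 library per condition no test between conditions was possible, so every interval given here covers counting error alone and says nothing of the spread between mice.

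CMs are short-lived blood leukocytes that leave the bone marrow through CCR2, the receptor for CCL2, CCL7, CCL8 and CCL12. They enter inflamed tissue, where they can become macrophages or antigen-presenting cells. In mice they carry high Ly6C and CCR2 and low CX3CR1, whereas nonclassical monocytes, which patrol the vessel wall, carry the reverse and depend on the transcription factor NR4A1. In lung grafts, CMs that arrive with reperfusion are known to help neutrophils cross the vessel wall.

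The rule took cells with more than 200 genes and under 10% mitochondrial transcripts. In each, 5 marker genes together had to reach 0.3% of all unique molecular identifiers (UMIs, each 1 captured RNA molecule). The markers were Ly6c2, a surface protein of CMs, Ccr2, Vcan, which encodes the matrix proteoglycan versican, F13a1, the coagulation factor XIII A chain, and Chil3, a chitinase-like secreted protein. Lyz2 (lysozyme) had to reach 0.3% as well. Cells were left out at 0.3% or more of a 4-gene sum that includes Saa3 (serum amyloid A3), Serpinb2 and Ccl24, at 0.1% or more of C1qa, C1qb and C1qc, which encode complement C1q, or at 2% or more of the neutrophil alarmins S100a8 and S100a9. Values of these 15 genes chose the cells, so they are given as a description only. In the GENCODE vM21 annotation of GRCm38 the markers are protein-coding genes at chr15:75108158-75111970 (Ly6c2), chr9:124101950-124113557 (Ccr2), chr13:89655312-89742509 (Vcan), chr13:36867178-37050244 (F13a1) and chr3:106147554-106167564 (Chil3).

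The CMs were deeply read. They gave 10858388 UMIs, with a median of 17747 per cell (range, 577 to 41124) and a median of 3913 genes, against a median of 5797 UMIs over all kept cells of the library. The median mitochondrial share was 3.52%, Scrublet marked 29 of the 613 (4.73%) as doublets, and 38 passed the upper limits of 6000 genes or 25000 UMIs used in the study's methods. Barcodes shared between libraries were few: 23 between the grafts, 5 of which belonged to a CM of either graft, and 1 between the naive and 3-day libraries.

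All 5 markers were found in 485 of the 613 cells (79.1%), and no cell had fewer than 2. The marker sum had a median of 0.535% of UMIs (25th to 75th percentile, 0.408% to 0.70%). Chil3 gave the largest part of the sum in 331 cells (54.0%), Ccr2 in 107, Vcan in 77, Ly6c2 in 67 and F13a1 in 31. Chil3 was also the most uneven marker, being without a UMI in 67 cells and reaching 2.25% in the highest. Without Chil3 the remaining 4 markers still carried 408 of the 613 cells (66.6%) over the limit.

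Cells lay on both sides of the marker limit. Of the 1369 cells that met every other condition, the 613 inside had a median of 0.535% and the 756 outside 0.0311%. In all, 95 lay within a 20% band above the limit and 73 within the same band below it, and the nearest cells on either side stood at 0.304% and 0.299%. Fewer cells lay near the other limits. Within the same band, 8 cells lay inside and 8 outside the limit on the 4-gene sum (nearest values, 0.297% and 0.309%), and 3 inside and 2 outside that on C1q. For Lyz2 these were 3 and 1, and for S100a8 and S100a9 3 and 2.

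**Figure D1:**
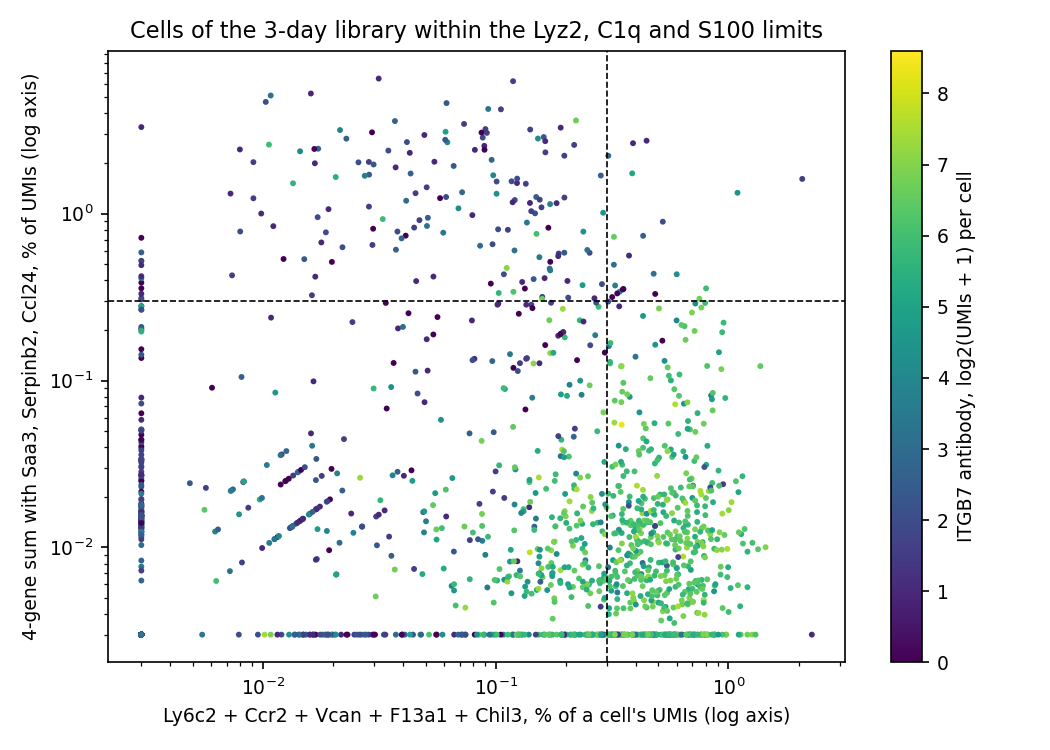
Share of UMIs from the 5 CM markers (x axis, percent, log scale) against the share from the 4-gene sum with Saa3, Serpinb2 and Ccl24 (y axis, percent, log scale) in single cells of the 3-day graft that met the other conditions; shares of 0 are drawn at 0.003%, dashed lines are the limits of 0.3%, and colour is the log2 of ITGB7 antibody UMIs plus 1. Cells at lower right are the 613 CMs, whose median ITGB7 antibody count was 66, against 5.5 in the 22 cells past both limits.

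The label was set against genes outside the rule. Levels are given as UMIs per 1000000 (CPM) of the summed population, for CMs beside nonclassical monocytes (591 cells), Saa3 macrophages (183 cells) and C1q macrophages (247 cells) of the same library, each chosen by its own gene shares. Plac8, a cysteine-rich protein of CMs, stood at 2892 CPM in CMs, 1400 in nonclassical monocytes, 228 in Saa3 macrophages and 224 in C1q macrophages. Ms4a4c, a tetraspan membrane protein, stood at 344, 77.8, 23.9 and 85.3 CPM. Among these 4 populations both genes were highest in CMs, as were Hp (haptoglobin), Mgst1 (a glutathione transferase) and Cd177. Hp was at 1037 CPM in CMs against at most 357 in the other mononuclear populations, and Mgst1 at 453 against at most 90.8. These 5 belong to a list of 26 CM genes outside the rule, and other genes of it were not highest in CMs. Fn1 (fibronectin) stood at 1785 CPM in CMs, 11773 in Saa3 macrophages and 4499 in C1q macrophages. Cd14, a coreceptor for lipopolysaccharide, was at 815, 1614 and 2333 CPM. Itgam, Clec4d and Clec4e were also lower in CMs than in Saa3 macrophages, and Ly6a and Ly6i, members of the Ly6 family of surface proteins, were lower than in nonclassical monocytes. The whole list summed to 21901 CPM in CMs, 27817 in Saa3 macrophages, 16645 in C1q macrophages and 11506 in nonclassical monocytes.

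Markers of T cells, B cells and neutrophils were lower in CMs than in the cells they define. The 8 T cell markers summed to 26.4 CPM in CMs against 3974 in T cells, the 8 B cell markers to 87.4 against 7051 in B cells, and the 8 natural killer cell markers to 15.7 CPM. The 10 alveolar macrophage markers summed to 9.03 CPM (most abundant, Pparg), the 7 basophil and mast cell markers to 2.58 CPM and the 9 endothelial, epithelial and platelet markers to 13.4 CPM. The 10 neutrophil markers summed to 977 CPM, led by S100a8, against 151792 in neutrophils, and 2 of them were genes of the rule. Ly6c1, a near-identical neighbour of Ly6c2, was at 0.737 CPM, and reads of the pair may have been split in counting.

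Surface antibodies gave a readout of the same cells that the rule had not used. Both graft libraries had been stained with 277 DNA-tagged antibodies, 9 of them isotype controls, and 5 gave more UMIs than every isotype control: CD49f (integrin α6, ITGA6), CD44, ITGB7 (integrin β7), Mac2 (galectin-3, LGALS3) and CD45R. These 5 made up 98.5% of all antibody UMIs at 3 days. Antibodies to CD11b, CD115, CD64, CD14, CD86 and CCR2 (CD192) gave 0 UMIs in CMs, although Itgam, which encodes CD11b, was at 530 CPM with a UMI in 607 of the 613 cells. Those antibodies therefore carried no information on these cells.

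ITGB7 antibody was higher on CMs than on nonclassical monocytes, Saa3 macrophages, C1q macrophages and neutrophils. Integrin β7 pairs with α4 or αE and is known for guiding leukocytes to mucosa. The median was 66 UMIs per cell in CMs (25th to 75th percentile, 45 to 91), 3 in nonclassical monocytes, 3 in Saa3 macrophages, 5 in C1q macrophages, 2 in neutrophils, 14 in T cells and 28 in B cells. In UMIs per cell, 96.9% of CMs lay above the 75th percentile of Saa3 macrophages, 96.6% above that of nonclassical monocytes and 79.8% above that of B cells. The summed isotype controls had a median of 1 UMI in CMs and 2 in Saa3 macrophages.

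Among the same myeloid populations, the Itgb7 transcript was highest in CMs too. It stood at 215 CPM in CMs, 145 in nonclassical monocytes, 61.6 in Saa3 macrophages, 30.5 in C1q macrophages and 29.4 in neutrophils. T cells were at 196 CPM. Their antibody was lower per cell but, per 1000 antibody UMIs, higher than that of CMs, with a log2 ratio of CMs to T cells of 0.96 per cell and -0.36 (-0.39 to -0.34) per 1000, and of CMs to B cells of 1.2 and -0.08 (-0.09 to -0.06). At a fixed depth of 2000 UMIs per cell, Itgb7 was found in 35.5% of CMs, 23.2% of nonclassical monocytes, 8.75% of Saa3 macrophages and 3.91% of neutrophils, and unthinned in 90.0% of CMs.

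CD49f was lower on CMs than on both macrophage populations. Its median was 19 UMIs in CMs (12 to 31), 66 in Saa3 macrophages, 130 in C1q macrophages and 4 in nonclassical monocytes, and 76.3% of CMs lay below the 25th percentile of C1q macrophages. The Itga6 transcript stood at 5.62 CPM in CMs, 74.3 in Saa3 macrophages, 150 in C1q macrophages and 20.6 in nonclassical monocytes. Against nonclassical monocytes the order of the antibody depended on the measure, since the median was higher in CMs but the log2 ratio of summed UMIs was -0.66 (-0.69 to -0.63) per cell and -1.56 (-1.59 to -1.53) per 1000 antibody UMIs. CD44, the hyaluronan receptor, was bound at a median of 45 UMIs in CMs (29 to 65), 64 in Saa3 macrophages, 61 in C1q macrophages and 23 in nonclassical monocytes, with wide overlap. Mac2 had a median of 28 in CMs (18 to 40), 20 in Saa3 macrophages, 53 in C1q macrophages and 6 in nonclassical monocytes. Lgals3, its transcript, was highest in CMs, at 2360 CPM against 879, 790 and 860, so that transcript and antibody ranked CMs and C1q macrophages in opposite order. Galectin-3 is secreted and binds glycans of many cells.

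Per 1000 antibody UMIs, a scale on which a rise of 1 of the 5 antibodies lowers the others, ITGB7 was higher in CMs than in Saa3 macrophages by 3.6 on the log2 scale (95% counting interval, 3.53 to 3.67), and per cell by 2.87. CD49f was lower on both scales, at -2.02 (-2.05 to -1.99) and -2.75. CD44 changed sign with the scale, at 0.07 (0.04 to 0.10) per 1000 and -0.66 per cell. The summed isotype controls were lower by as much as CD49f, at -2.01 per 1000 and -2.74 per cell, so that neither scale brought the controls to the same level. ITGB7 was also read in cells near the limits. The 22 cells over both the marker limit and the limit on the 4-gene sum had a median of 5.5 ITGB7 UMIs at a median of 7722.5 gene UMIs, while the 73 cells just under the marker limit had 53 and the 95 just over it had 62. Inside the rule, ITGB7 medians were 63, 68, 79 and 60 across 4 rising bins of the 4-gene sum, against 6.5 in the 16 cells from 0.3% to 1% and 4 in the 6 cells above.

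**Figure D2:**
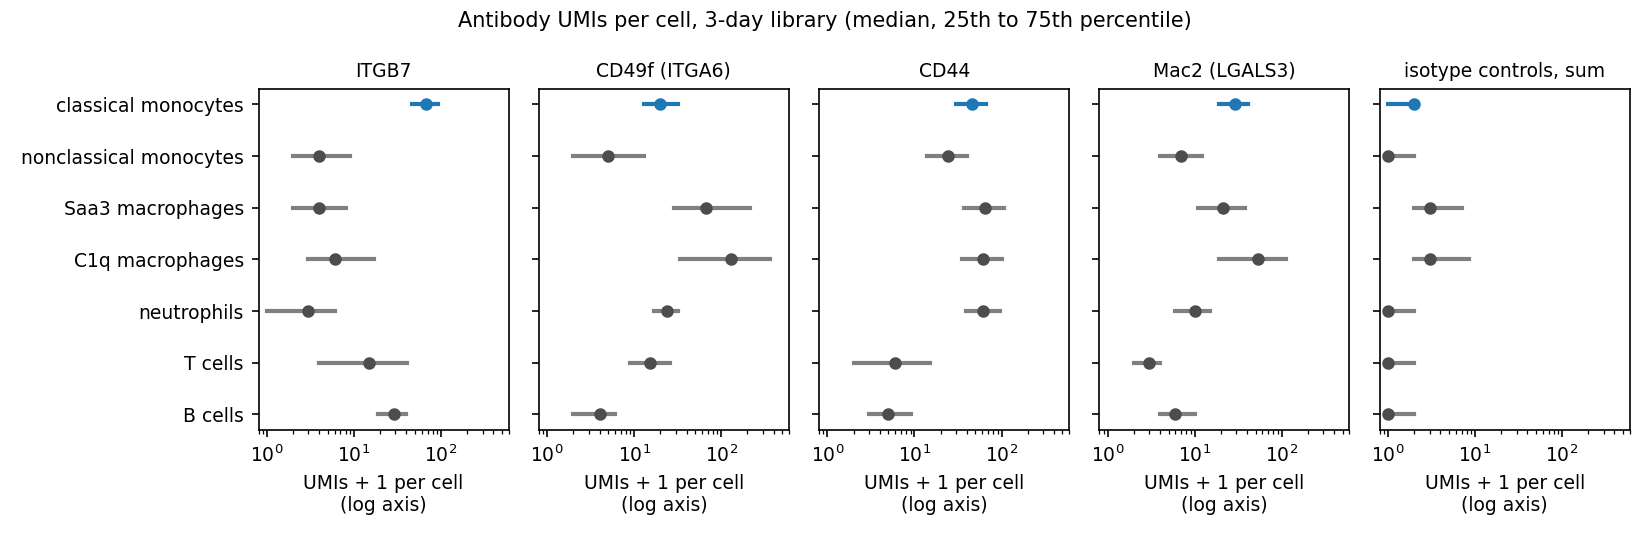
Surface antibody UMIs per cell plus 1 (log axis) for CMs and 6 other populations of the 3-day graft; points are medians and bars run from the 25th to the 75th percentile over cells of 1 library. ITGB7 is highest in CMs (median 66), whereas CD49f is highest in C1q macrophages (130).

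Gene levels were then compared with each mononuclear neighbour in the same library. A gene was compared with at least 50 UMIs over both populations and counted past a 2-fold ratio of CPM plus 10. Ratios quoted for single genes are log2 ratios of CPM itself with their 95% counting intervals. Because each population was cut by gene shares, genes that go with those shares differ in part by choice, and counts of a list are read against the share of all genes. Against Saa3 macrophages, of 9047 genes 478 were higher in CMs (5.28%) and 677 lower (7.48%). Against C1q macrophages, of 9321 genes 273 were higher (2.93%) and 497 lower (5.33%). Against nonclassical monocytes, of 9552 genes 260 were higher (2.72%) and 508 lower (5.32%). Ribosomal protein and mitochondrial transcripts made up 22.0% of UMIs in CMs and 11.7% in Saa3 macrophages. Scaled to the remaining genes, the median of all genes in that comparison moved by 0.12 and the counts turned to 705 higher and 573 lower.

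**Figure D3:**
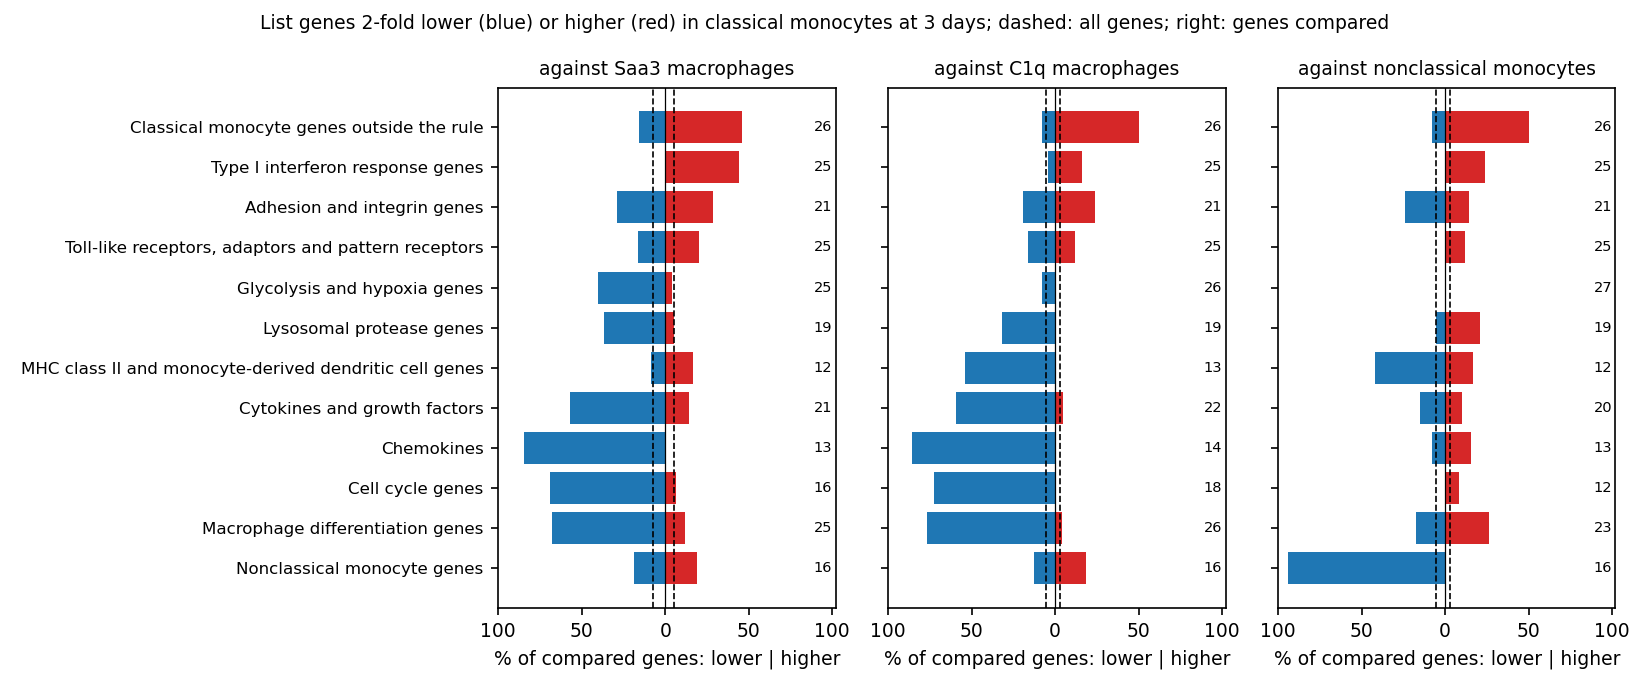
Share of each list's compared genes that was 2-fold lower (blue) or higher (red) in CMs than in Saa3 macrophages, C1q macrophages and nonclassical monocytes of the 3-day graft; dashed lines mark the share over all genes compared and the number at right is the number of list genes compared. Chemokine and macrophage lists lie on the lower side against both macrophage populations (11 of 13 and 17 of 25 genes against Saa3 macrophages), and the nonclassical list against nonclassical monocytes (15 of 16).

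Of the CM genes outside the rule, more were higher than lower in CMs in all 3 comparisons. Of its 26 genes, 12 were higher and 4 lower than in Saa3 macrophages, 13 higher and 2 lower than in C1q macrophages, and 13 higher and 2 lower than in nonclassical monocytes. Plac8 was higher by 3.66 (3.53 to 3.80) against Saa3 macrophages, and Ms4a4c by 3.85 (3.43 to 4.29). Among the genes lower in CMs, Itgam was at 530 CPM in CMs and 2260 in Saa3 macrophages, and the summed level of the list was lower than in Saa3 macrophages as well. Ly6a and Ly6i were lower than in nonclassical monocytes, at 9.76 against 84.2 CPM and 10.6 against 94.8 CPM.

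Against nonclassical monocytes, 15 of 16 genes of the nonclassical list were lower in CMs, with a median of -3.15 where the median of all genes was -0.13. The 5 genes Ace, Treml4, Ear2, Cd300e and Adgre4 chose the nonclassical cells, so part of this count was fixed by choice. Nr4a1 was at 171 CPM in CMs and 1079 in nonclassical monocytes, Spn, which encodes CD43, at 77.0 and 775, and Itgal, the α chain of LFA-1, at 275 and 1294. Cx3cr1, the fractalkine receptor, was at 189 and 423 CPM, the smallest difference of those counted. Higher in CMs were Thbs1 (thrombospondin 1), at 2984 against 373 CPM, Ccr1, an inflammatory chemokine receptor, at 325 against 35.3, and the metalloproteinase gene Mmp19, at 141 against 11.2. Of 15 Fc and complement receptor genes, 8 were higher in CMs and 1, Fcgr4, lower. The 8 T cell markers summed to 26.4 CPM in CMs and 251 in nonclassical monocytes, 13 of which also met the rule for T cells and 6 that for B cells, and the part of those cells was not tested.

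**Figure D4:**
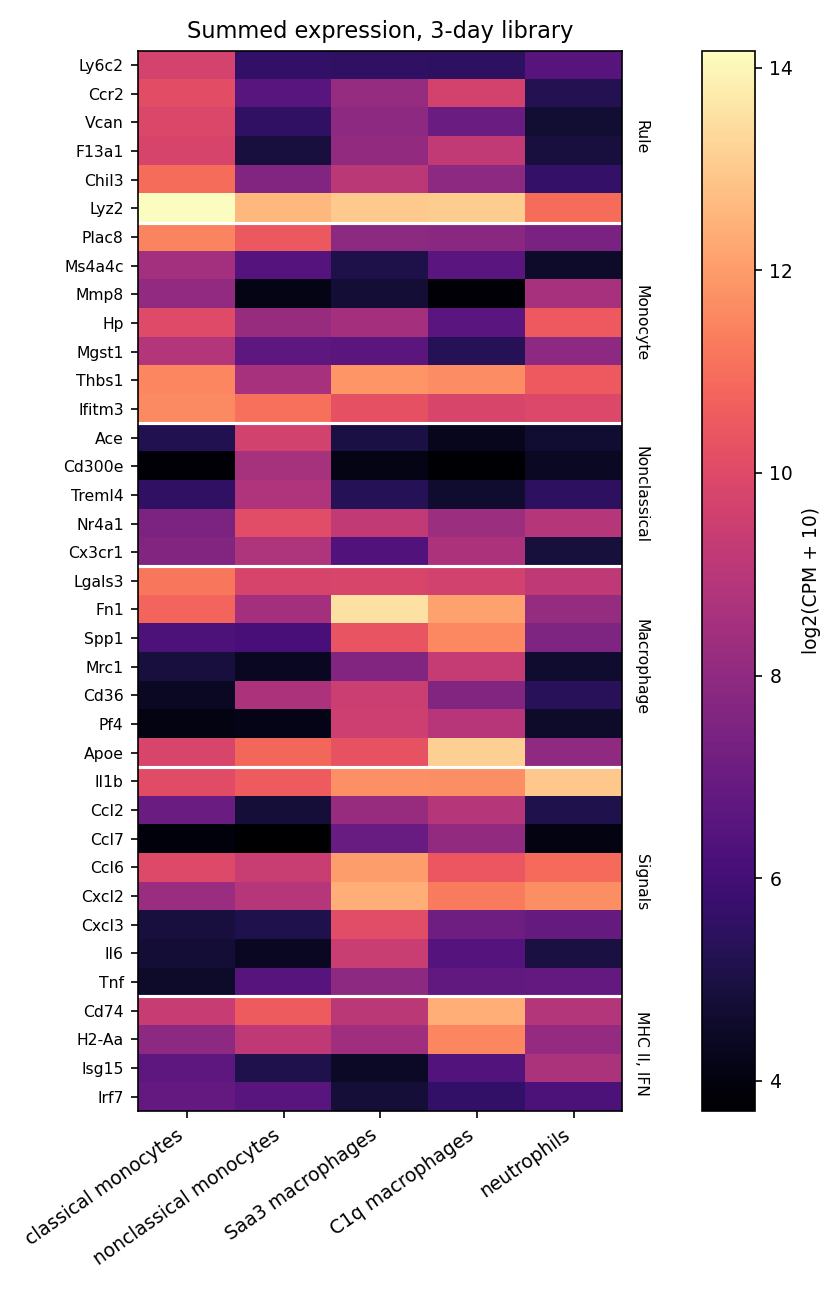
Levels of named genes as log2(CPM + 10) in CMs at 3 days, nonclassical monocytes, Saa3 macrophages and C1q macrophages and neutrophils of the same graft; each column sums the cells of 1 population in 1 library. Plac8 is highest in CMs (2892 CPM) and next in nonclassical monocytes (1400), whereas Spp1 is brightest in C1q macrophages (3050 CPM, against 67.5 in CMs at 3 days).

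Macrophage differentiation genes were mostly lower in CMs than in macrophages. Of 25 compared with Saa3 macrophages 17 were lower and 3 higher, and of 26 compared with C1q macrophages 20 were lower and 1 higher. Against nonclassical monocytes 6 of 23 were higher and 4 lower, and the list summed to 7090 CPM in CMs and 7042 in nonclassical monocytes. Spp1 (osteopontin) was at 67.5 CPM in CMs, 1276 in Saa3 macrophages and 3050 in C1q macrophages, with 18.6% of its CM UMIs in 1 cell. Apoe (apolipoprotein E) was at 902, 1249 and 8867 CPM, and Cd36, a scavenger receptor, at 11.3, 711 and 184 CPM. Several lay at the level found in lymphocytes, which should lack them: Pf4 at 6.45 CPM against 13 in B cells, Cd36 against 27.5, and Mrc1, the mannose receptor, at 19.7 against 18.9. At 2000 UMIs Pf4 was found in 0.821% of CMs and 1.11% of B cells, so no expression can be read from it. Cd68, a lysosomal glycoprotein of phagocytes, was on the other side, at 328 CPM in CMs, 134 in Saa3 macrophages, 236 in C1q macrophages and 324 in nonclassical monocytes. Trem2, a lipid receptor of macrophages, was at 113 CPM in CMs with a UMI in 422 cells, between 28.9 in nonclassical monocytes and 345 in C1q macrophages. B cells held 6.55 CPM of Trem2, and the part of free RNA in its level in CMs was not tested.

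Levels of Ccr2 and of its ligand genes are given for CMs and, apart from Ccl8, for some of the other populations. Ccr2, a gene of the rule, was at 1134 CPM in CMs, 825 in C1q macrophages, 274 in Saa3 macrophages and 82.8 in nonclassical monocytes, and was found in 84.9% of CMs at 2000 UMIs against 9.13% of T cells. Ccl2, a main CCR2 ligand, was at 121 CPM in CMs, 479 in C1q macrophages, 278 in Saa3 macrophages, 17.4 in nonclassical monocytes, 7.77 in T cells and 14.9 in B cells. At 2000 UMIs it was found in 12.0% of CMs (9.51% to 14.8%), 31.1% of C1q macrophages and 1.68% of T cells, and unthinned in 39.6% of CMs. Ccl7, another ligand, was at 5.25 CPM in CMs, 253 in C1q macrophages, 116 in Saa3 macrophages, 2.45 in T cells and 4.85 in B cells. Its share of CMs at 2000 UMIs was 0.821%, against 0.601% of T cells, which is background. Ccl12 was at 0.829 CPM in CMs, in 5 cells, and at 32.3 in C1q macrophages. Ccl8 had 0 UMIs in CMs, which allows up to 0.276 CPM (3 counts).

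Most listed chemokine genes were lower in CMs than in macrophages. None of 13 genes was higher than in Saa3 macrophages and 11 were lower, and none of 14 was higher than in C1q macrophages and 12 were lower. Cxcl2, a neutrophil attractant, was at 293 CPM in CMs, 5394 in Saa3 macrophages, 2500 in C1q macrophages and 473 in nonclassical monocytes. Cxcl3 was at 19.8 CPM in CMs and 1077 in Saa3 macrophages, and Cxcl1 at 16.0 and 935, with B cells at 13.9 and 18.9. The chemokines with the highest levels in CMs were Ccl6, at 1012 CPM against 4121 in Saa3 macrophages and 1355 in C1q macrophages, and Ccl9, at 811 against 1790 and 1004. They were found in 608 and 604 of the 613 CMs. Nonclassical monocytes had less of both, with 677 and 243 CPM. Against them 2 of 13 chemokine genes (Ccl2 and Ccl9) were higher in CMs and 1 (Ccl5) lower.

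Cytokine genes were mostly lower in CMs than in macrophages, with 12 of 21 lower and 3 higher against Saa3 macrophages and 13 of 22 lower and 1 higher against C1q macrophages. Il1b was at 1064 CPM in CMs, 1489 in nonclassical monocytes, 3437 in Saa3 macrophages, 3283 in C1q macrophages and 8041 in neutrophils. At 2000 UMIs 51.6% of CMs had an Il1b UMI, against 98.0% of neutrophils and 13.3% of T cells. Il6 was at 16.6 CPM against 662 in Saa3 macrophages and 13.6 in B cells, and Tnf at 13.1 against 235 and 13.7. For both genes CMs stood near the level of B cells of the same library. Higher in CMs than in Saa3 macrophages were Tgfbi, a matrix protein induced by TGF-β, at 1013 against 292 CPM, Il18 at 51.6 against 11.7 and Tgfb1 at 461 against 209. Il18 was also higher than in C1q macrophages (13.6) and nonclassical monocytes (11.8).

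Of 12 granule genes, 5 had enough UMIs to be compared. In CMs, 2 of these were higher than in Saa3 macrophages, 3 than in C1q macrophages and 3 than in nonclassical monocytes, and none was lower. The list summed to 455 CPM in CMs and 1672 in neutrophils. Mmp8, the neutrophil collagenase, was the gene with the largest ratio to C1q macrophages and to nonclassical monocytes. It was at 248 CPM in CMs, 7.42 in nonclassical monocytes, 16.8 in Saa3 macrophages, 3.91 in C1q macrophages, 379 in neutrophils and 2.42 in B cells. UMIs were found in 526 of the 613 CMs, with no cell giving more than 1.15% of them, and at 2000 UMIs in 34.0% of CMs and 34.9% of neutrophils. Lcn2 (lipocalin 2) was at 111 CPM in CMs and 1130 in neutrophils, Wfdc21 at 175 and 1569, and Hp at 1037 and 1437, with 7.45, 15.4 and 18.9 CPM in B cells. Prtn3 (proteinase 3) was at 75.2 CPM in CMs and 4.22 in neutrophils. The granule genes Mpo, Elane, Camp, Ngp and Ltf were at 1.75 CPM or less in CMs, and Cxcr2 was at 6.26 CPM against 1133 in neutrophils. The part of neutrophil RNA in these levels was not tested. Levels in B cells of the same library were low, and ratios of CMs to neutrophils were unequal from gene to gene. Neutrophil markers summed to 977 CPM in CMs, and Scrublet marked 29 of the 613 CMs as doublets.

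Adhesion genes split evenly, with 6 of 21 higher and 6 lower than in Saa3 macrophages. Itgb7, Itga1, Itgal, Itga4 and F11r were among those higher, and Itga6, Itgam, Itgb1, Itgax, Icam1 and Itgav were lower. Itga4, the α4 chain that pairs with β7, was at 494 CPM in CMs, 217 in Saa3 macrophages, 204 in C1q macrophages and 849 in nonclassical monocytes.

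A further list joined major histocompatibility complex class II genes with genes of monocyte-derived dendritic cells. Of 13 of its genes compared with C1q macrophages, 7 were lower in CMs and none higher. Mgl2 and Itgax were among the 7 and are not class II genes. H2-Aa was at 233 CPM in CMs, 2955 in C1q macrophages, 563 in nonclassical monocytes, 320 in Saa3 macrophages and 4521 in B cells. Cd74, the invariant chain, was at 649, 5326, 1477, 528 and 9039 CPM. At 2000 UMIs H2-Aa was found in 15.3% of CMs (12.5% to 18.4%) and 10.2% of T cells. The part of free RNA in these values was not tested. Cd209a, a marker of monocyte-derived dendritic cells, had UMIs in 4 CMs, and 1 of these gave 90.3% of them.

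Further lists are given briefly. In summed populations, cell cycle genes were lower in CMs than in Saa3 macrophages in 11 of 16 cases, with 1 (Hmgb2) higher. Against C1q macrophages, 13 of 18 were lower and none higher. Mki67 was found in 0.657% of CMs at 2000 UMIs against 7.5% and 6.39% of these macrophages and 1.80% of T cells. The median share of the cell cycle list per cell was close in all 3, at 0.0609% in CMs, 0.0568% in Saa3 macrophages and 0.0591% in C1q macrophages. Lysosomal genes were lower in 7 of 19 and 6 of 19 cases, with Ctsd (cathepsin D) at 302 CPM in CMs, 1896 in Saa3 macrophages and 891 in C1q macrophages. Glycolysis and hypoxia genes were lower than in Saa3 macrophages in 10 of 25 cases, Vegfa, Mif and Hk2 among them, and than in C1q macrophages in 2 of 26. Oxidative stress genes were lower than in Saa3 macrophages in 9 of 24 cases, Hmox1 and Sod2 leading, while Mgst1 and Gsr (glutathione reductase) were higher. Coagulation genes were lower than in Saa3 macrophages in 7 of 15 cases, with F7 and F3 (tissue factor) among them, and higher than in nonclassical monocytes in 6 of 12. Matrix and repair genes were lower than in Saa3 macrophages in 11 of 19 cases and higher than in nonclassical monocytes in 7 of 18. Of 39 myeloid transcription factors 16 were lower and 3, Cebpd and Irf5 among them, higher than in Saa3 macrophages. Pattern receptor genes were near balance, with 5 of 25 higher and 4 lower.

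Interferon response genes leaned toward CMs. These genes are switched on by type I interferon through factors that bind an element of GAAA, any 2 bases and GAAA in their promoters. Of 25 compared, 11 were higher and none lower than in Saa3 macrophages (median 0.95, with all genes near 0), 4 higher and 1 lower than in C1q macrophages and 6 higher and none lower than in nonclassical monocytes. Scaled outside ribosomal and mitochondrial genes, 17 of 25 were higher than in Saa3 macrophages. Isg15, a ubiquitin-like modifier, was at 93.5 CPM in CMs, 11.7 in Saa3 macrophages, 74.6 in C1q macrophages, 24.7 in nonclassical monocytes, 402 in neutrophils and 27.1 in T cells. Its ratio to Saa3 macrophages was 3.00 (2.40 to 3.66). Irf7, the amplifier of the interferon loop, was at 103, 17.8, 38.8 and 82.0 CPM in the 4 mononuclear populations, and Ifi204, a DNA sensor of the p200 family, at 324, 77.9, 148 and 135. CMs were highest for both. The p200 genes are near copies of each other, and their reads may have been split in counting.

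Promoters of the 3 listed genes with the largest such ratio and a match are shown from RefSeq (GRCm38.p6), 5′ to 3′ on the strand of the gene, with matches to this element, or to TTTC, any 2 bases and TTTC where it lies on the other strand, in capitals. They lie at chr4:156200850-156200921 (minus strand, 3 overlapping matches), chr19:34640760-34640838 (plus strand, 2 matches) and chr1:173913049-173913108 (minus strand, 1 match).
Isg15: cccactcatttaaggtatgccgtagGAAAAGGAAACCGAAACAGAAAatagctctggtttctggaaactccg
Ifit1: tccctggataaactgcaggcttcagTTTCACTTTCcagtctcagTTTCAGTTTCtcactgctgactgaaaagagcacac
Ifi211: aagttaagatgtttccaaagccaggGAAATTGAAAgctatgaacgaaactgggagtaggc
Of the 28 listed genes 22 had a promoter in the table (250 bases before to 50 after the start), and 11 of these (50%) held the element on either strand, against 1079 of 27025 promoters overall (3.99%). Among the 11 genes higher than in Saa3 macrophages, 9 had a promoter and 5 of these (55.6%) held it. A match describes letters in this window and no binding. Ifit1 was at 21.4 CPM in CMs, in 31 cells, and 1.02 in Saa3 macrophages, and Ifi211 at 132 and 47.3 CPM.

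Single interferon genes were uneven among CMs. The whole interferon list took a median of 0.117% of a cell's UMIs (25th to 75th percentile, 0.0751% to 0.173%). Isg15 had UMIs in 255 of the 613 cells, and 1 cell gave 9.46% of them, while Cxcl10 had UMIs in 22 cells. Cells in which Ly6c2 led the marker sum had 215 CPM of Isg15 and 89.1 of Cxcl10, against 51.5 and 0.520 where Ccr2 led and 71.3 and 9.41 where Chil3 led. The 77 cells led by Vcan lay between, with 146 CPM of Isg15 and 26.0 of Cxcl10, and their interferon list summed to 2056 CPM against 2687 in cells led by Ly6c2. The 31 cells led by F13a1 had 292 CPM of Spp1 and 110 of Mrc1, against 26.9 and 16.8 in cells led by Ly6c2. Cells were grouped here by genes of the rule, so these are descriptions.

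Across 4 groups of about equal size by rising marker sum, H2-Aa was at 408, 363, 93.1 and 70.6 CPM and Il1b at 1521, 1076, 971 and 683 CPM. Cd74 was at 1131 CPM in the lowest group and 233 in the highest. Mmp8 went the other way, at 166, 236, 271 and 319 CPM. Doublet calls were 13, 6, 8 and 2 in these groups, and their part in the class II values was not tested. ITGB7 medians were 61, 65, 73 and 69. Across 4 rising bins of the 4-gene sum inside the limit, Fn1 was at 1648, 1711, 2051 and 2976 CPM and Cxcl2 at 271, 200, 947 and 890, with 34 cells in the last bin. Plac8 stayed between 2566 and 2940 CPM.

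The same rule found 80 cells in the 2-hour graft, 0.778% of 10283 kept cells (0.617% to 0.967%). Depth differed greatly: the median was 2019 UMIs in the 2-hour CMs and 878 over that library, and all 80 cells held 167097 UMIs, so that 1 UMI was worth 5.98 CPM. When the cells of both libraries were thinned to 500 UMIs before the rule, 524 of 8514 cells passed at 3 days (6.15%, 5.65% to 6.69%), 444 of them among the 613. At 2 hours, 9814 of the 10283 kept cells reached this depth and 68 of them passed (0.693%, 0.538% to 0.878%). Thinning matched the UMIs per cell and no other property of the libraries.

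Of 8656 genes compared, 1096 were higher at 3 days than at 2 hours (12.7%) and 435 lower (5.03%). The limit of 50 UMIs applied to both populations together, and CMs held 10858388 UMIs at 3 days against 167097 at 2 hours. A gene found only at 2 hours thus needed a far higher CPM to be compared than one found only at 3 days. Counts of higher and lower genes, here and in the lists that follow, are therefore not on an equal footing. The median of all genes was 0.22, and that of the same genes in T cells of the libraries 0.12. The T cell ratio, taken on CPM plus 10, is given beside the ratios of single genes. CM identity genes outside the rule differed little, with 2 of 26 higher and none lower and a median of -0.08. Plac8 was at 2892 CPM at 3 days and 2125 at 2 hours and Hp at 1037 and 862, with T cell ratios of 0.66 and -0.83.

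Metallothioneins, which bind zinc and are induced by metals and stress, were far lower at 3 days. Mt1 was at 181 CPM at 3 days and 3124 at 2 hours, where 63 of 80 cells had UMIs, and the log2 ratio was -4.11 (-4.25 to -3.97) against -1.0 in T cells. Mt2 was at 8.29 and 329 CPM, but 1 cell gave 49.1% of its UMIs at 2 hours. The endothelin receptor gene Ednrb was at 8.75 and 156 CPM (18 of 80 cells at 2 hours), and Fkbp5, a glucocorticoid-induced chaperone, at 11.7 and 126 CPM (T cells, -0.93).

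Chemokine genes were lower at 3 days in 6 of 13 cases and higher in 2. Cxcl2 was at 293 CPM at 3 days and 1987 at 2 hours, and its ratio of -2.76 (-2.92 to -2.59) stood beside -2.06 in T cells. At 2 hours 1 of 30 cells with a UMI gave 39.8% of it. Ccl6 was at 1012 and 3746 CPM with a ratio of -1.89 (-2.0 to -1.77), against -0.33 in T cells. Ccl2 was at 121 and 449 CPM, a ratio of -1.90 (-2.23 to -1.54) where T cells had 0.83. Cxcl3 and Ccl4 were lower as well, but 1 cell held 97.6% of the Ccl4 UMIs at 2 hours. Ccl7 had 0 UMIs in the 80 cells at 2 hours, which allows up to 18.0 CPM.

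Of 39 myeloid transcription factors 9 were lower at 3 days and 1 higher. Atf3 was at 63.6 CPM at 3 days and 449 at 2 hours, a ratio of -2.82 (-3.16 to -2.45) against -0.12 in T cells. A single cell gave 21.3% of the Atf3 UMIs at 2 hours, which came from 20 cells. Jun was at 120 and 676 CPM and Fos at 460 and 1143, with T cell ratios of -1.91 and -2.40, so that T cells were lower in both as well. Irf8, a factor of monocyte and dendritic cell development, was the 1 gene higher, at 119 against 18.0 CPM (3 UMIs at 2 hours), with -0.20 in T cells. Cxcr4, at 264 and 1496 CPM, was lower in T cells by nearly as much (-2.28).

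Of 20 adhesion genes 5 were higher at 3 days and none lower. Itgb7 was at 215 and 53.9 CPM, Itgb2 at 559 and 174 and Itgal at 275 and 89.8, yet T cells showed ratios of 1.63, 1.2 and 1.93 for the same genes. The NADPH oxidase subunits Ncf4, Ncf1 and Cybb were also higher (T cells, 0.78, 0.61 and 2.21), as were 6 of 19 lysosomal genes. The ferritin genes Fth1 and Ftl1 were lower (T cells, -1.10 and -1.40), as was Hmox1 (heme oxygenase 1). Hmox1 was at 91.2 and 437 CPM, a ratio of -2.26 (-2.60 to -1.90) against 0.07 in T cells. Trem2 was at 113 CPM at 3 days against 1 UMI at 2 hours (5.98 CPM), a ratio of 4.24 (1.76 to 9.55) with 0.25 in T cells. Dmkn (dermokine) was at 101 CPM and 0 UMIs, and the 3-count limit of 18.0 CPM makes it at least 5.62-fold higher. The hemoglobin gene Hbb-bs was among the 10 largest ratios as well, but 1 cell gave 77.0% of its UMIs.

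**Figure D5:**
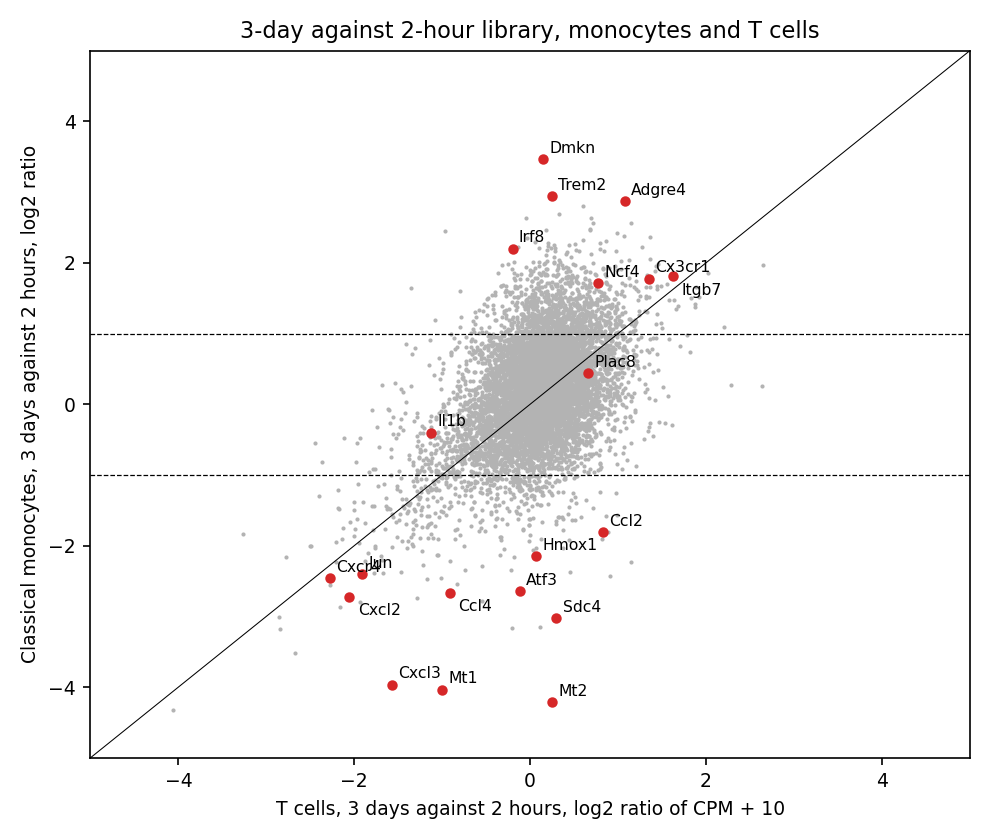
Log2 ratio of CPM + 10 at 3 days over 2 hours in T cells (x axis) and in CMs (y axis), 1 point per compared gene; dashed lines mark 2-fold and the diagonal equal ratios. Mt1 (-4.04 in CMs, -1.0 in T cells) and Atf3 (-2.64 in CMs, -0.12 in T cells) lie below the diagonal, whereas Cxcr4 and Jun lie near it.

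Surface antibodies were measured in both grafts. ITGB7 had a median of 66 UMIs at 3 days and 43 at 2 hours in CMs, a log2 ratio of 0.18 (0.13 to 0.23) per 1000 antibody UMIs and 0.71 per cell. Mac2 had medians of 28 and 2, a ratio of 2.92 (2.73 to 3.12) per 1000. The Lgals3 transcript was at 2360 and 2256 CPM, a ratio of 0.07 (-0.08 to 0.22). The Mac2 antibody was also higher at 3 days in other cells, with means of 11.4 and 0.646 UMIs in neutrophils, 2.06 and 0.180 in T cells and 7.52 and 0.501 in B cells. Staining of the libraries and binding to cells cannot be told apart here.

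In the naive lung the rule caught other cells. It took 318 of 2628 kept cells (12.1%), but 266 of these (83.6%) carried at least 0.05% of UMIs from 10 alveolar macrophage markers, against 4 of 80 cells at 2 hours and 2 of 613 at 3 days. Chil3 is also a gene of alveolar macrophages. The 10 markers summed to 5388 CPM in the naive cells, led by Plet1 and all above 0, against 9.03 at 3 days. Against all 318 cells, of 10409 genes 652 were higher at 3 days (6.26%) and 1754 lower (16.9%). These counts compare CMs with cells of which most carried alveolar macrophage markers. Taken relative to the ratio of each gene in T cells, they became 792 and 1159, and scaling outside ribosomal and mitochondrial genes moved the median of all genes by 0.12.

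With those 266 cells left out, 52 naive cells remained (822997 UMIs, median 16208.5). In them Ly6c2 was at 2015 CPM, Ccr2 at 758, Vcan at 718, F13a1 at 840 and Chil3 at 1945, against 832, 1134, 940, 862 and 1969 at 3 days. Of 8803 genes, 122 were higher at 3 days (1.39%) and 665 lower (7.55%), and the median of all genes was 0.01. Here too, a gene found only in the naive cells needed a higher CPM to be compared than a gene found only at 3 days. The genes lower at 3 days were long: their median span in the genome was 122 kb, against 23.7 kb for all genes compared, and in T cells the lower genes had 124 kb against 24.3 kb. The naive library had been counted with another version of Cell Ranger, which by default counts intron reads, and the part of this in the lower genes was not tested. Lrmda, Alcam and Plcb1, among the 10 lowest, are such genes.

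Of the 26 CM genes outside the rule, 1 (Ccr1) was higher at 3 days than in these naive cells and none lower. Plac8 was at 2892 and 2882 CPM. Of 15 chemoattractant receptor genes, 5 were higher and none lower. C5ar1, the receptor for complement C5a, was at 195 CPM at 3 days and 54.7 in naive cells, a ratio of 1.83 (1.41 to 2.29) against 0.88 in T cells. Ccr1 was at 325 and 128 CPM, C3ar1 at 39.0 and 7.29, and Fpr2, a formyl peptide receptor, at 48.7 and 10.9. T cells showed ratios of 0.53, 0.27 and 0.27 for these 3.

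Granule-type genes were higher at 3 days than in naive CMs in 3 of 5 cases. Mmp8 was at 248 CPM against 65.6, a ratio of 1.92 (1.53 to 2.33) with 0.02 in T cells, Lcn2 at 111 against 8.51 and Prtn3 at 75.2 against 21.9. Wfdc21 was at 175 against 1.22 CPM (1 UMI) and Lrg1 at 152 against 2.43. Neutrophil markers moved in the same direction, with a sum of 977 CPM at 3 days against 262 in naive cells, and their part in these ratios was not tested.

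Interferon response genes were lower at 3 days than in naive CMs in 8 of 25 cases and higher in 1, Ifit1. Ifi205 was at 12.5 CPM against 81.4, and Rtp4 at 36.2 against 131. Isg15, at 93.5 against 194 CPM, fell short of 2-fold on CPM plus 10 and was not among the 8. The ratio of Isg15 was -1.06 (-1.30 to -0.81), and T cells showed -0.05. Cd209a was at 2.85 against 52.2 CPM and Cd86, a costimulatory ligand, at 96.1 against 315, with ratios of 0.04 and -0.94 in T cells.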

How the data were processed

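Single-cell RNA was measured on the 10x Genomics platform in 1 library each of naive lung and of grafts at 2 hours and 3 days, pooling 2 mice per library, and surface antibodies in the graft libraries. The labels name both 5′ and 3′ kits and the methods a 3′ kit, so the chemistry of each library is unsettled, and its part in ratios between libraries was not tested. The deposited values are raw UMI counts per gene or antibody and cell barcode, which the authors made with Cell Ranger, per the file headers in version 7.1.0 (naive) or 6.0.0 (both grafts) (the submitters' processing notes give Cell Ranger 6, Seurat 4 and mm10). The matrices held 32285 genes. Total gene counts were 28538529 in the naive library (2921 barcodes), 10749100 at 2 hours (10328) and 70750470 at 3 days (9016).

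Cells with more than 200 genes and under 10% mitochondrial counts were kept, with no upper limit. Scrublet (scanpy 1.11.5) marked doublets, which were kept in the main values. The UMIs of all cells in a population were added up per gene and scaled to 1000000 (CPM). A gene was compared with at least 50 UMIs over both populations, and counted when the ratio of CPM plus 10 reached 2-fold; the 15 genes of the rule were left out. No test was possible with 1 library per condition. Intervals are exact at 95% (Poisson for sums, Clopper-Pearson for shares, conditional binomial for ratios) and cover counting error only; a count of 0 was given the limit of 3 counts. Shares of cells were taken after thinning each cell to 2000 UMIs, leaving out shallower cells (609 of the 613 remained). Steps ran in python 3.11.15 with numpy 2.4.6, scipy 1.17.1, pandas 2.3.3 and matplotlib 3.10.9, and were checked on simulated counts.

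Certain genes, 1 of them a gene of the rule, are not reported here. The members, the 27 gene lists and the comparisons were chosen with earlier results of these data known. Named genes were those of the rule, the 10 with the largest ratio in each direction of a comparison (between libraries, only where T cells differed by at least 1 on the log2 scale), the 4 most abundant and the 2 with the largest ratio per direction of each list, and Ccr2, its ligands, Il1b and Ly6c1. Other names, such as Itga4, Fos, Cxcr2, Cybb and the granule genes at low level, were added after their values were seen, as was the naive comparison without alveolar macrophage marker cells. Alternatives changed the cell filters, doublets, limits of the rule, Chil3, depth, scaling, pseudocount and minimum count.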

Additional observations from a re-analysis of the deposited data

How the results depend on the processing

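Of 108 alternative values computed, 78 moved by less than their counting interval or by less than 1.5 times for a count, 28 moved further and 2 reversed. The share of classical monocytes (7.20%) was 11% of the cells left when cells with B or T cell UMIs were removed, 8.62% at a marker limit of 0.2%, 3.92% at 0.5% (334 cells), 4.79% without Chil3 (408 cells) and 6.15% after thinning to 500 UMIs. With a pseudocount of 1 CPM, 1051 genes were higher and 1110 lower than in Saa3 macrophages, 2270 and 757 against 2 hours, and 1146 and 2926 against the naive library. Against 2 hours, 1825 genes were higher at the 0.5% limit and 268 lower with at least 200 UMIs. Against the naive library, 403 were higher under the upper limits of the methods, 163 higher and 659 lower without Chil3, 122 and 665 without cells carrying alveolar macrophage markers (chosen after seeing the data), and 1159 lower relative to T cells. For antibodies against Saa3 macrophages, ITGB7 was 3.84 without doublets, 4.07 from medians plus 1 and 2.87 per cell, ITGA6 -1.74 and -2.75 on the latter scales, and LGALS3 0.47 and 0.095. CD44 reversed, to -0.50 from medians plus 1 and -0.66 per cell. The cause of these shifts was not tested, apart from the smaller numbers of genes or cells that a stricter limit leaves by construction.

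No paired analysis was possible because each condition had 1 library. Depth limits the 2-hour comparison, since 1 UMI there was worth 5.98 CPM and genes of low level rest on a few cells. The pooled mice cannot be told apart, so no value covers the spread between animals.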
